A study of Homo sapiens with 160 samples.

Results

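AP-1 is a family of transcription factors built as dimers of FOS and JUN proteins, and the RNA of 9 of its genes was followed here: FOS, FOSB, FOSL1 and FOSL2 of the FOS family, JUN, JUNB and JUND of the JUN family, and the related factors ATF3 and BATF3. They were taken by gene symbol from a table of 29273 genes, a list drawn up with earlier results of these data known, and all 9 passed the filter on low values. The cells were BEAS-2B, a human bronchial epithelial line immortalised with viral genes, here with no genetic change, grown to confluence and kept overnight without serum before treatment. Mometasone, a glucocorticoid, was used at 100 nM, indacaterol, a long-acting agonist of the β2-adrenoceptor, at 100 nM, and carbachol, an agonist of muscarinic receptors, at 10 µM. These doses are those of the single-agent groups, and the labels of the combinations repeat none. The 8 treatments were all 3 agents together, mometasone with indacaterol, mometasone with carbachol, indacaterol with carbachol, mometasone alone, indacaterol alone, carbachol alone and vehicle. RNA was sequenced after 1, 2, 6 and 18 h. Of the 32 groups, 24 held 5 libraries, 6 held 4 and 2 held 3, namely the 18 h groups of mometasone alone and of all 3 agents.

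FOS and JUN proteins pair through a leucine zipper and bind short DNA elements, and the makeup of the dimer sets how strongly it activates. FOS, FOSB, JUN and JUNB are textbook immediate early genes, switched on within minutes by kinases and by the cyclic AMP pathway that β2-adrenoceptors feed. FOSL1 and FOSL2 encode FRA-1 and FRA-2, FOS-family proteins without the strong activation domain of FOS and FOSB. JUN activates its own gene, JUNB and JUND are weaker activators, and JUND is widely expressed at a steady level. ATF3 is a stress-induced factor that binds cyclic AMP response elements, and BATF3 is best known from dendritic cells, where it pairs with JUN proteins. The glucocorticoid receptor is known to repress genes driven by AP-1.

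In the GRCh38 annotation, the FOS-family genes lie apart: FOS at chr14:75278774-75282230 (plus strand), FOSB at chr19:45467995-45475179 (plus), FOSL1 at chr11:65892049-65900573 (minus) and FOSL2 at chr2:28392448-28417312 (plus). JUN is at chr1:58780788-58784327 (minus), JUNB at chr19:12791496-12793315 (plus) and JUND at chr19:18279760-18281622 (minus). ATF3 at chr1:212565334-212620777 (plus) and BATF3 at chr1:212686418-212699985 (minus) lie near each other on chromosome 1.

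Promoter sequences show which members carry letters of a cyclic AMP response element or an AP-1 site next to their start. RefSeq promoter windows on GRCh38.p14, 250 bases before to 50 after a start, were given for 7 of the 9 members, with 2 starts for ATF3. FOSL1 and BATF3 are named only. Both strands were searched for the full cyclic AMP response element TGACGTCA, its 5-base part TGACG (or, on the other strand, CGTCA), and the AP-1 site TGACTCA. The full element, which holds the 5-base part on both strands, was found in the JUND window, 200 bases before the start, and 1.85% of all 35116 windows hold it. At least 1 copy of the 5-base part was found in FOS (64 bases before the start), FOSB (60), FOSL2 (66 and 201), JUN (123), JUNB (137) and JUND, and 24.6% of all windows hold one. No copy of any of the 3 was found in either ATF3 window. Only these 2 windows were searched for ATF3, so this does not cover any other start of the gene. TGACTCA was found in FOSL2, where it begins 4 bases after the start, and 4.95% of all windows hold it. These are matches of letters, not measured sites. Only exact letters were searched, so elements that differ by a single base were not counted. TGACATCA, for example, stands uncounted in the JUN stretch below and in an ATF3 window. The 250 bases before the start follow for 4 members that differed in their response to indacaterol, 5′ to 3′ on the gene's strand, with the matched letters in capitals. They are FOSB (chr19:45467746-45467995, plus strand), FOSL2 (chr2:28392608-28392857, plus strand), JUN (chr1:58784048-58784297, minus strand) and JUND (chr19:18281623-18281872, minus strand). The FOSL2 and JUN stretches lie inside the gene spans given above, which begin further upstream than the RefSeq starts of these windows. All distances from a start are counted from the RefSeq start.
FOSB: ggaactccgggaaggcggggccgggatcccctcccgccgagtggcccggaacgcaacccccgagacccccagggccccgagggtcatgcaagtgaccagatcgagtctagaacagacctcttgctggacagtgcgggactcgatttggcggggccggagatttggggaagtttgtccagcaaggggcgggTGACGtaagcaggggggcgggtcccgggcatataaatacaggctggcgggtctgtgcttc
FOSL2: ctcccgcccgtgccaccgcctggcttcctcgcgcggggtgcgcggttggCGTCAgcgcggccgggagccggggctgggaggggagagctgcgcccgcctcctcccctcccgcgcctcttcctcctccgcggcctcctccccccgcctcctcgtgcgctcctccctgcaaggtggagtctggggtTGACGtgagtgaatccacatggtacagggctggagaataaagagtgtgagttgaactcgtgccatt
JUN: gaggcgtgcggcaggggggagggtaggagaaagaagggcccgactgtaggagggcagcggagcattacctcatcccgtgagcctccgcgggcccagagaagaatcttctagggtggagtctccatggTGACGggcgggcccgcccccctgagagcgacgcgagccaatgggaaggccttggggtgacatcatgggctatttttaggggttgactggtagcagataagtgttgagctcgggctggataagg
JUND: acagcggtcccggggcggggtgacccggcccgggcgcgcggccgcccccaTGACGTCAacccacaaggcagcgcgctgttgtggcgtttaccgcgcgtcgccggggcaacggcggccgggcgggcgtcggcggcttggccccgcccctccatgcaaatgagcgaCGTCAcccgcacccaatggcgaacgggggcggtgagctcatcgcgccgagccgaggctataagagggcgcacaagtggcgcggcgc

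Values are the authors' normalised values, which they call TPM, a unit per transcript length. The column sums ran from 847289 to 1498420 and not to a fixed total, so levels and shares that set different genes side by side rest on the authors' naming of the unit. In the 19 vehicle libraries, JUND, JUN and FOSL1 were the most abundant members, with medians of 106, 90.7 and 74.2. The median was 35.5 for FOSL2, 13.5 for ATF3, 9.79 for JUNB and 8.80 for BATF3. FOS and FOSB were near the floor of the table in vehicle libraries, with medians of 1.42 and 0.69, so a change on the log2(value + 1) scale used throughout understates theirs. Over the vehicle libraries, the ranges of neighbours in this order overlapped, except for BATF3 (6.01 to 12.4) and FOS (0.86 to 3.12). FOSL1, FOSL2, JUN, JUNB, JUND, ATF3 and BATF3 were at 1 or more in all 150 libraries, FOS in 135 and FOSB in 74. Fold changes given below are also on the value + 1 scale. They tend to be smaller than ratios of the listed values, most of all where values are low.

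Among epithelial markers, KRT8, KRT18 and KRT17 had medians of 314, 351 and 701 over the libraries, while EPCAM, KRT19 and KRT5 had medians of 0.23, 0.395 and 0.585. CDH1 and KRT7 had medians of 3.27 and 13.5. Of 5 fibroblast markers, COL1A1 and PDGFRB had medians of 634 and 108, while COL1A2, DCN and LUM had medians of 1.62, 1.70 and 0.04. Among immune markers, CD68 had a median of 16.5, and PTPRC, CD3E and LYZ had medians of 0.785 or less. The endothelial markers PECAM1, VWF, CDH5 and KDR had medians of 0.23 or less. 6 libraries, all of replicate 1, had over 20% of their summed value in mitochondrial genes (21.3 to 28.3%, against a median of 10.96% over all libraries). They are 1 each of indacaterol at 1 h and 2 h, carbachol at 1 h, mometasone with indacaterol at 6 h, indacaterol with carbachol at 2 h, and all 3 agents at 1 h. Without them 1 call of a member was lost, JUND in the 2 h comparison of mometasone added to indacaterol described below, and 2 were gained, FOSB in the 6 h test of the indacaterol effect against 1 h and JUND in the averaged effect of mometasone at 6 h (limma adjusted p = 0.032). The libraries came from 2 sequencing kits, and the labels do not say which library used which. The labels also do not say whether replicates were separate cultures, so p-values measure the spread between these libraries, which may be technical. In bulk RNA, fewer cells and less RNA per cell cannot be told apart.

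Indacaterol split the subunits in opposite directions. At 1 h, FOS, FOSB, JUNB and ATF3 were called higher and FOSL1 lower. At 2 h FOSL2 was called higher as well, and JUN lower. The indacaterol effect was not called as different between 1 h and 2 h for any member, FOSL2 and JUN included. JUND and BATF3 were not called at either time. Of all 14827 genes tested, 1.30% rose and 0.101% fell at 1 h, and 2.99% rose and 0.911% fell at 2 h, and the members called, 4 of 9 raised with 1 lowered after 1 h and 5 raised with 2 lowered after 2 h, were larger shares than these. The median log2 change of the 9 members was 0.85 at 1 h and 0.99 at 2 h, against 0 and 0.01 over all genes tested. As the members were chosen with earlier results of these data known, neither the shares nor the medians are independent of that choice. Adjusted p-values here and below are from limma with Benjamini-Hochberg adjustment over all genes tested.

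FOSB was the least abundant member in vehicle libraries, and it rose at both early times. Its values at 1 h were 3.78, 5.99, 17.7, 6.72 and 4.53 in indacaterol libraries, against 0.99, 1.02, 1.83, 0.69 and 0.98 in vehicle libraries. No overlap was seen, and in both groups replicate 3 was the highest. The log2 change was 1.89 (SE 0.28, limma adjusted p = 2.39e-07). At 2 h the values were 4.26, 8.70, 5.09, 12.8 and 4.02 with indacaterol, against 0.89, 2.36, 1.00, 1.01 and 0.48 with vehicle, again without overlap, and the log2 change was 1.83 (limma adjusted p = 2.58e-07).

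FOS, the founding member of the family, had values of 6.24, 2.93, 18.7, 4.63 and 5.90 in indacaterol libraries at 1 h, against 3.12, 1.06, 2.61, 1.42 and 1.64 in vehicle libraries. The lowest indacaterol library lay within the vehicle range, and replicate 3 lay far above the rest. The log2 change was 1.36 (SE 0.32, limma adjusted p = 0.00368), but without replicate 3 the adjusted p was 0.0616. At 2 h FOS was at 2.74 to 6.50 with indacaterol, against 0.86 to 1.92 with vehicle, without overlap and with a log2 change of 1.24 (limma adjusted p = 0.00599). Here the adjusted p was 0.0601 without replicate 2 and 0.0555 without replicate 5. Fitted on the 2 compared groups alone, the 1 h change of FOS had an adjusted p of 0.438.

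JUNB, a weaker activator of the JUN family, and ATF3 also rose at both times. JUNB was at 20.5, 24.4, 22.2, 23.7 and 32.03 with indacaterol at 1 h, against 10.7, 11.7, 10.9, 9.59 and 13.5 with vehicle. Every indacaterol library exceeded every vehicle library, and the log2 change was 1.05 (SE 0.19, limma adjusted p = 2.15e-05). At 2 h JUNB averaged 29.4 ± 6.9 with indacaterol and 9.98 ± 1.84 with vehicle (SD, n = 5 each), a log2 change of 1.46 (limma adjusted p = 4.46e-10). ATF3 was at 42.2, 86.7, 76.0, 94.1 and 46.3 with indacaterol at 1 h, against 22.0, 13.4, 36.5, 9.84 and 15.6 with vehicle. Every indacaterol library was above all vehicle libraries, and the log2 change was 1.84 (SE 0.25, limma adjusted p = 9.66e-09). With the 2 compared groups alone its adjusted p was 0.058. At 2 h ATF3 was at 29.1 to 80.5 with indacaterol, against 10.2 to 15.8 with vehicle, a log2 change of 1.94 (limma adjusted p = 6.46e-10).

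FOSL2 was called at 2 h and not at 1 h, but the difference between its effects at these times was itself not called. At 1 h its values were 53.4, 75.5, 85.2, 79.8 and 38.9 with indacaterol, against 44.8, 32.8, 57.8, 27.3 and 22.4 with vehicle, and the log2 change of 0.85 was not called (limma adjusted p = 0.10). Without replicate 3 or without replicate 5 it was called (adjusted p = 0.0491 and 0.0117). In every same-numbered pair at 1 h the indacaterol library was the higher one. With the replicate number as a block the 1 h change was called (limma adjusted p = 2.81e-09), although not all same-numbered libraries of this comparison deviated together. At 2 h the values of FOSL2 were 49.7, 74.1, 104, 84.9 and 51.3 with indacaterol, against 35.5, 37.0, 50.1, 33.7 and 22.4 with vehicle. The ranges still overlapped by a narrow margin, and the log2 change was 0.99 (SE 0.26, limma adjusted p = 0.00933). That call was lost without replicate 2 (adjusted p = 0.101), without replicate 4 (0.166), with libraries rescaled to the same sum (0.229) and with the 2 compared groups alone (0.099).

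FOSL1, the most abundant FOS-family gene of untreated cells, moved the other way. At 1 h its values were 65.3, 40.9, 57.6, 28.5 and 42.6 with indacaterol, against 97.3, 103, 74.2, 82.6 and 79.3 with vehicle. Every indacaterol library was below all vehicle libraries, and the log2 change was -0.92 (SE 0.20, limma adjusted p = 0.000779). Its adjusted p was 0.0642 when replicate 4 was left out, and 0.149 in a fit of the 2 compared groups alone, so the call was lost in both. At 2 h FOSL1 was at 20.6, 29.2, 20.7, 18.8 and 18.4 with indacaterol, against 74.2, 87.3, 78.6, 78.1 and 59.7 with vehicle. The highest indacaterol library was less than the lowest vehicle library by a wide gap, and FOSL1 was 3.42-fold lower (log2 change -1.77, SE 0.20, limma adjusted p = 6.69e-13).

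JUN fell with FOSL1 at 2 h, in contrast to its relative JUNB. Its values at 2 h were 28.99, 33.1, 28.0, 33.7 and 33.4 with indacaterol, against 63.8, 70.3, 74.98, 71.2 and 69.4 with vehicle. The groups were tight and far apart, and JUN was 2.19-fold lower (log2 change -1.13, SE 0.24, limma adjusted p = 0.000358). At 1 h JUN was at 60.6, 38.1, 85.1, 40.8 and 53.3 with indacaterol, against 119, 67.5, 144, 71.2 and 91.7 with vehicle, and its log2 change of -0.82 was not called (limma adjusted p = 0.0627), although in 5 of 5 same-numbered pairs the indacaterol library was the lower one. With the replicate number as a block, JUN at 1 h was called lower (limma adjusted p = 2.25e-10), although not all same-numbered libraries of this comparison deviated together. The spread at 1 h ran with the replicate number: replicates 1 and 3 were the highest pair for JUN in 8 of 8 treatment groups at 1 h, and in 0 of 8 at 2 h. For FOS they were the highest pair in 6 of 8 groups at 1 h.

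JUND and BATF3 were not called with indacaterol. JUND was at 104 to 151 with indacaterol at 1 h, against 106 to 179 with vehicle, and its log2 changes were -0.01 at 1 h and 0.32 at 2 h. BATF3 was at 6.30 to 11.1 with indacaterol at 1 h, against 6.74 to 11.4 with vehicle, with log2 changes of -0.07 at 1 h and 0.30 at 2 h.

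**Figure D1:**
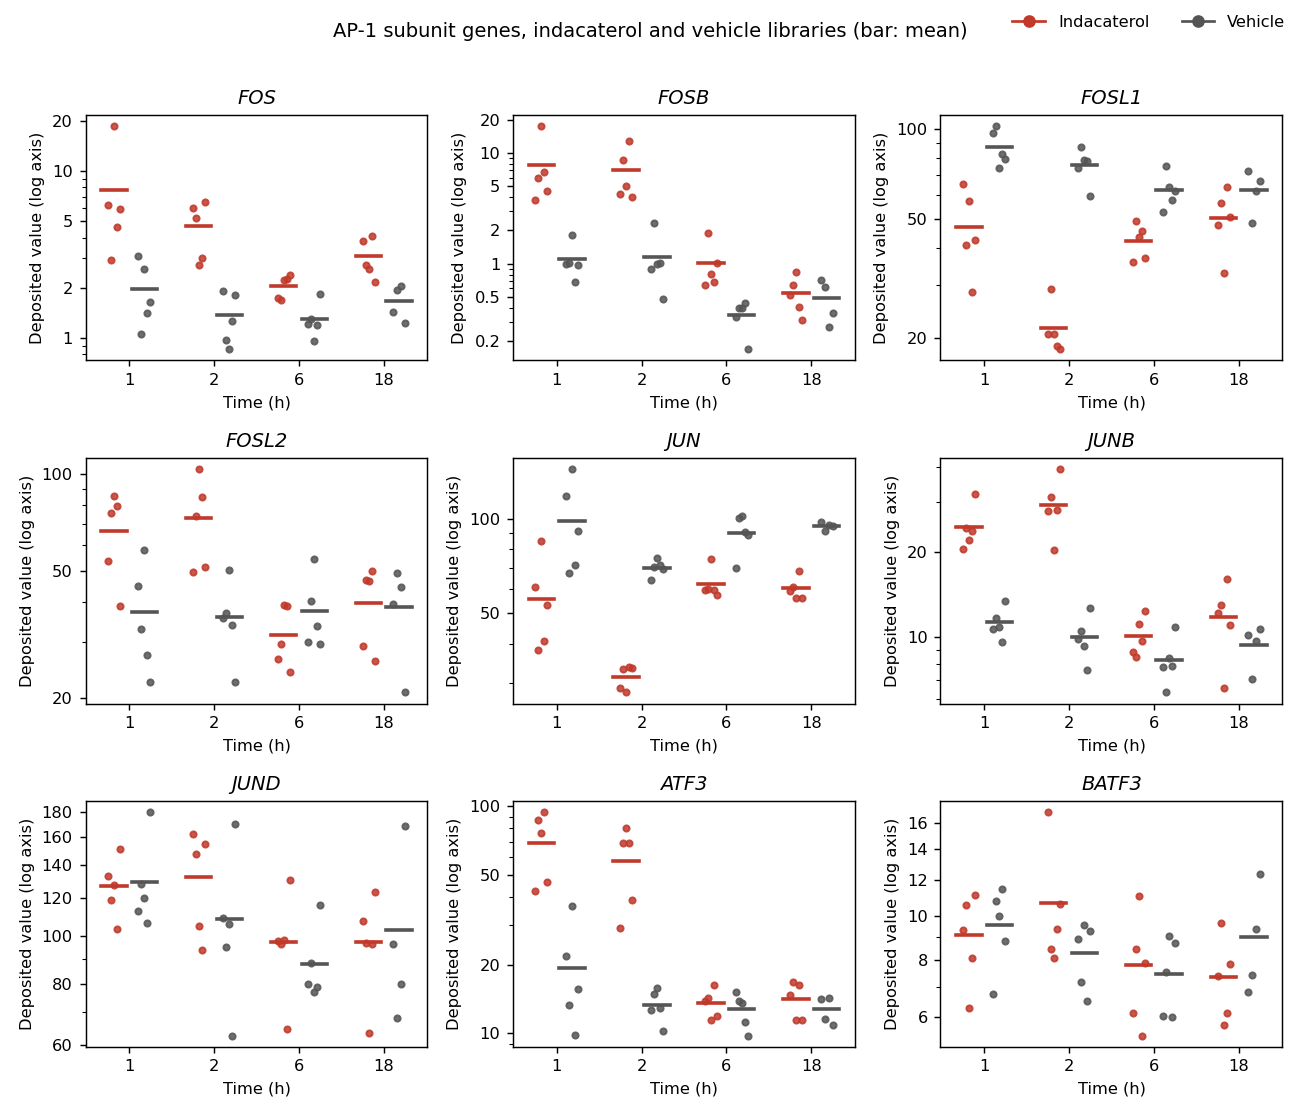
Deposited value (log axis) of each of the 9 genes at 1, 2, 6 and 18 h, with indacaterol libraries left of vehicle libraries at each time. Points are libraries and bars are means. FOSB, JUNB and ATF3 lie above vehicle without overlap at 1 and 2 h, FOSL1 lies below it without overlap at 1, 2 and 6 h, and JUN at 2 and 18 h.

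At 6 h and 18 h 0 of 9 members were called, while over all genes tested 0.937% rose and 0.803% fell at 6 h and 0.135% rose and 0.0674% fell at 18 h. FOSL1 was at 35.9 to 49.1 with indacaterol at 6 h, against 52.6 to 75.3 with vehicle, without overlap (log2 change -0.55, limma adjusted p = 0.196). FOSB was at 0.64 to 1.90 with indacaterol at 6 h, against 0.17 to 0.44 with vehicle, also without overlap (log2 change 0.55, limma adjusted p = 0.664). With 6 h fitted alone, FOSL1 (adjusted p = 0.0103), JUN (log2 change -0.53, 0.0107) and FOSB (0.0186) were called, and FOSL1 also with the 2 compared groups alone (0.0469). At 18 h, JUN was at 56.0 to 68.5 with indacaterol, against 91.7 to 97.6 with vehicle, and FOS at 2.18 to 4.09, against 1.24 to 2.04, both without overlap. The 18 h change of JUN, -0.66 on the log2 scale, had a limma adjusted p of 0.877. In this comparison same-numbered libraries deviated together, and with the replicate number as a block the adjusted p was 3.64e-05. With 18 h fitted alone it was 4.34e-05.

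The change of the indacaterol effect between times was tested directly. The effect on ATF3 was smaller at 6 h than at 1 h by 1.75 on the log2 scale (log2 difference -1.75, limma adjusted p = 0.000698) and at 18 h than at 1 h by a log2 difference of -1.71 (limma adjusted p = 0.00247). That on FOSB differed by -1.84 at 18 h (limma adjusted p = 0.0053). These were 1 of 9 members lower at 6 h and 2 of 9 at 18 h, where 0.803% and 0.567% of all genes were called lower. Leaving out replicate 2 gave adjusted p of 0.0606 for ATF3 at 6 h, 0.178 for ATF3 at 18 h and 0.0552 for FOSB at 18 h, and without replicate 4 those at 18 h were 0.233 for ATF3 and 0.0954 for FOSB. With rescaled libraries, ATF3 at 18 h had an adjusted p of 0.0808. With the compared groups alone, ATF3 and FOSB at 18 h had adjusted p of 0.134 and 0.0612. No member was called at 2 h against 1 h in this test, which called 0.0944% of all genes higher and 0.027% lower. In vehicle libraries, 0 of 9 members were called at any later time against 1 h, where at most 0.101% of all genes rose and 0.223% fell.

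Set over all 4 backgrounds, that is with indacaterol against without it in cells given vehicle, mometasone, carbachol or both, the early directions were the same. FOS, FOSB, FOSL2, JUNB and ATF3 rose and FOSL1 and JUN fell at 1 h and at 2 h, while 3.28% and 8.13% of all genes rose and 1.23% and 5.41% fell. This set of 19 libraries with and 19 without indacaterol at 1 h, and 20 of each at 2 h, includes the libraries of the comparison with vehicle. The averaged log2 change at 1 h was 1.70 for ATF3 (SE 0.13), 1.01 for FOS (SE 0.16), 0.89 for JUNB (SE 0.10), 0.87 for FOSB (SE 0.15) and 0.82 for FOSL2 (SE 0.14). It was -0.87 for FOSL1 (SE 0.10, limma adjusted p = 3.23e-12) and -0.80 for JUN (SE 0.12, limma adjusted p = 1.77e-07). ATF3 at 2 h was at 29.1 to 89.1 in the libraries with indacaterol, against 10.2 to 19.4 in those without, with no overlap over all 4 backgrounds. At 6 h, FOSL1 (log2 change -0.54, limma adjusted p = 6.14e-06) and JUN (-0.39, limma adjusted p = 0.0174) were still lower, where 6.27% of all genes fell and 6.85% rose with 0 members among them. FOSB (log2 change 0.37) was called higher in fits of 6 h alone (adjusted p = 0.000103), with a pseudocount of 0.1 (0.000981) and without replicate 3 (0.0349), and FOS (0.31) and ATF3 (0.20) in fits of 6 h alone (0.0172 and 0.0241). The 6 h call of JUN was lost without replicate 2, 4 or 5 (adjusted p = 0.0588, 0.0772 and 0.11). At 18 h 0 members were called, and 0.789% of all genes rose and 0.809% fell. JUN (log2 change -0.42, limma adjusted p = 0.119) was called lower with 18 h fitted alone (adjusted p = 4.6e-07), and BATF3 without replicate 5 (0.0459).

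Mometasone lowered FOSL1 and JUN with larger log2 changes at the later times, and raised FOSL2. Differences between times were not tested for mometasone. FOSL1 fell by 1.09, 2.22 and 2.64 on the log2 scale at 2, 6 and 18 h, while its log2 change of -0.70 at 1 h was not called (limma adjusted p = 0.163). JUN fell by 1.15, 1.57, 2.08 and 2.27 on the log2 scale at 1, 2, 6 and 18 h. Mometasone lowered 1 member and raised 0 after 1 h, where 0.054% of all genes fell and 0.418% rose. After 2 h it lowered 2 and raised 1, where 0.486% fell and 1.5% rose. After 6 h it lowered 2 and raised 0, where 4.24% fell and 5.37% rose, and after 18 h it lowered 2 and raised 1, where 4.96% fell and 4.14% rose. The comparisons of mometasone and of indacaterol share their vehicle libraries.

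At 6 h FOSL1 was at 13.8, 11.99, 11.96, 12.4 and 12.2 with mometasone, against 52.6, 75.3, 63.9, 57.8 and 62.1 with vehicle. The mometasone libraries lay close together and far from vehicle, and FOSL1 was 4.67-fold lower (limma adjusted p = 2.27e-18). JUN at 6 h was at 16.5, 15.8, 21.7, 23.2 and 27.3 with mometasone, against 69.7, 101, 102, 90.7 and 88.8 with vehicle. Every mometasone library was below all vehicle libraries, and JUN was 4.22-fold lower (limma adjusted p = 2.86e-12). At 18 h, FOSL1 was at 9.19, 6.75 and 12.1 with mometasone, against 72.1, 48.7, 62.3 and 67.2 with vehicle (6.21-fold lower, limma adjusted p = 1e-17). JUN was then at 18.7, 16.5 and 21.7 with mometasone, against 97.6, 91.7, 96.0 and 94.9 with vehicle (4.84-fold lower, limma adjusted p = 2.13e-10). For both genes the groups at 18 h were far apart, although only 3 mometasone libraries were used.

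The early values were less clear. At 1 h JUN was at 72.4, 21.6, 84.8 and 23.0 with mometasone, against 119, 67.5, 144, 71.2 and 91.7 with vehicle, with overlap (log2 change -1.15, limma adjusted p = 0.00389). That call was lost without replicate 2 (adjusted p = 0.263), without replicate 4 (0.202), with rescaled libraries (0.0581), with 1 h fitted alone (1) and with the 2 compared groups alone (0.99). FOSL1 at 1 h was at 39.9 to 66.4 with mometasone, against 74.2 to 103 with vehicle, without overlap. With the replicate number as a block, in this comparison where same-numbered libraries pair, its adjusted p was 4.19e-05. At 2 h FOSL1 was at 24.9 to 53.8 with mometasone, against 59.7 to 87.3 with vehicle (limma adjusted p = 2.18e-05), and JUN at 19.4 to 26.5, against 63.8 to 74.98 (limma adjusted p = 3.04e-07).

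FOSL2, the FOS-family gene that mometasone raised, was at 83.5, 95.4, 109, 84.4 and 52.6 with mometasone at 2 h, against 35.5, 37.0, 50.1, 33.7 and 22.4 with vehicle. The groups did not overlap, and FOSL2 was 2.35-fold higher (log2 change 1.23, SE 0.26, limma adjusted p = 0.000737). At 18 h it was at 69.7, 82.4 and 82.7 with mometasone, against 39.3, 49.2, 44.6 and 20.8 with vehicle (log2 change 1.07, limma adjusted p = 0.016), a call lost without replicate 2 (adjusted p = 0.0988), without replicate 4 (0.109) and with the 2 compared groups alone (0.126). At 1 h the log2 change was 0.95 (limma adjusted p = 0.15, and 1.22e-06 with the replicate block), and at 6 h it was 0.73 (limma adjusted p = 0.0613, but 0.0206 with 6 h fitted alone and 0.0135 without replicate 5). FOS, FOSB, JUNB, JUND, ATF3 and BATF3 were not called with mometasone alone at any time, while ATF3 at 6 h was called lower with 6 h fitted alone (adjusted p = 0.0161). For JUNB at 2 h, at 9.25 to 18.4 with mometasone, against 7.61 to 12.7 with vehicle, the replicate block gave an adjusted p of 0.0118, and the fit without replicate 3 gave 0.0385.

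**Figure D2:**
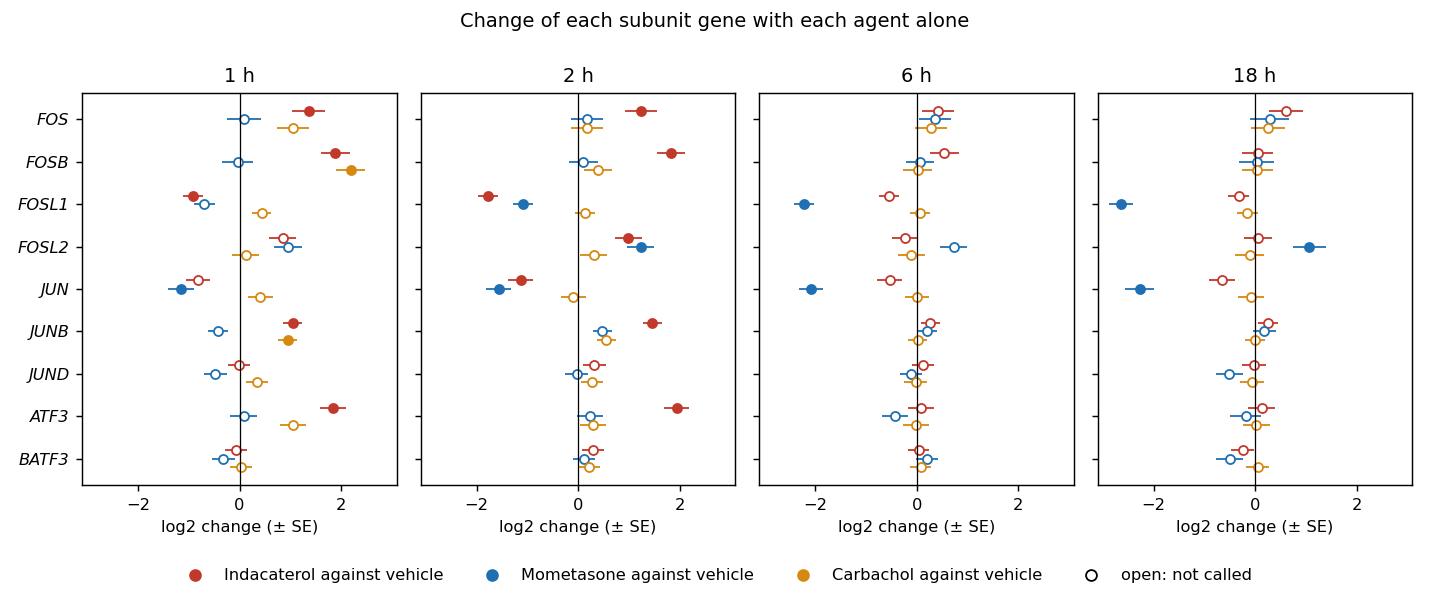
Log2 change (± SE) of each gene at 1, 2, 6 and 18 h for indacaterol, mometasone and carbachol, each against vehicle. Filled points passed an adjusted p of 0.05 and open points did not. The filled points of indacaterol all lie in the 1 and 2 h panels, and those of carbachol in the 1 h panel. Those of mometasone for FOSL1 and JUN move further to the left with time.

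Averaged over the 4 backgrounds, mometasone also lowered some of the genes that indacaterol raised. At 1 h FOS (log2 change -0.58, limma adjusted p = 0.0262), FOSB (-0.74), FOSL1 (-0.53), JUN (-1.02), JUNB (-0.50) and JUND (-0.43) fell and FOSL2 rose (0.80), where 0.836% of all genes fell and 1.80% rose. The call of FOS at 1 h was lost with a pseudocount of 0.1, with no filter on low values, without replicates 2, 3 or 5 and with 1 h fitted alone (adjusted p between 0.0516 and 0.511). That of FOSB had an adjusted p of 0.0509 with 1 h fitted alone, and that of JUND 0.25, 0.0632 and 0.0515 without replicate 2, 3 or 4. At 2 h, 4 members fell (FOSB -0.66, FOSL1 -0.86, JUN -1.32, JUND -0.42) and FOSL2 rose (1.14), where 3.59% of all genes fell and 4.98% rose. At 6 h, FOSL1 (-2.24), JUN (-2.01) and ATF3 (-0.38) fell and FOSL2 rose (0.93), where 14.6% of all genes fell and 18.4% rose. At 18 h, FOSL1 (-2.35), JUN (-2.07), JUND (-0.39) and BATF3 (-0.45) fell and FOSL2 rose (1.00), where 13.8% fell and 17.6% rose. The smaller of these depended on 1 replicate: JUND at 2 h lost its call without replicate 1 (adjusted p = 0.0843) and at 18 h without replicate 2 (0.116), and ATF3 at 6 h without replicate 1 (0.0617) or 2 (0.0748).

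FOSL1 and JUN separated the libraries completely by mometasone at the later times. At 6 h, FOSL1 was at 5.73 to 15.4 in the 20 libraries with mometasone, against 32 to 86.4 in the 20 without. At 18 h it was at 6.47 to 12.6 in the 14 libraries with mometasone, against 32.9 to 72.1 in the 18 without. JUN at 18 h was at 14.6 to 21.7 with mometasone, against 56.0 to 101 without. For JUN the same held at 2 h, with 11.03 to 26.5, against 28.0 to 74.98.

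With both agents together, FOSL2 at 2 h had the highest and FOSL1 at 6 h the lowest mean of the 32 groups. At 2 h FOSL2 averaged 182 ± 50 with mometasone and indacaterol, 84.9 ± 20.7 with mometasone, 72.7 ± 22.9 with indacaterol and 35.7 ± 9.9 with vehicle (SD, n = 5 each). Its 5 values with both agents were 168, 195, 258, 168 and 123, against 49.7, 74.1, 104, 84.9 and 51.3 with indacaterol. The groups did not overlap, and adding mometasone to indacaterol gave a log2 change of 1.33 (SE 0.26, limma adjusted p = 9.77e-05). Where carbachol was present as well, FOSL2 averaged 169 ± 34 (SD, n = 5), the next highest of the 32 group means.

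Adding mometasone also lowered FOSB early. At 1 h FOSB was at 1.99, 2.05, 1.73, 2.61 and 1.43 with both agents, against 3.78, 5.99, 17.7, 6.72 and 4.53 with indacaterol. The groups did not overlap (log2 change -1.39, SE 0.28, limma adjusted p = 0.000525). At 2 h FOSB was at 1.23 to 2.99 with both, against 4.02 to 12.8 with indacaterol, again without overlap (log2 change -1.26, limma adjusted p = 0.000952). The call at 1 h was lost with 1 h fitted alone (adjusted p = 0.137) and both were lost with the 2 compared groups alone (0.284 and 0.0699). ATF3, by contrast, had log2 changes of 0.00 at 1 h and -0.14 at 2 h when mometasone was added and was not called, with 43.4 to 98.1 at 1 h with both agents, against 42.2 to 94.1 with indacaterol.

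FOSL1 and JUN fell further with the addition. At 2 h FOSL1 averaged 13.0 ± 4.2 with both agents and 21.5 ± 4.4 with indacaterol (SD, n = 5 each), with overlap (log2 change -0.72, limma adjusted p = 0.0118). At 2 h JUN was at 13.5 to 19.6 with both, against 28.0 to 33.7 with indacaterol, without overlap (log2 change -0.93, limma adjusted p = 0.0059). FOSL1 at 2 h lost its call without replicate 1 (adjusted p = 0.177), with rescaled libraries (0.172) and with the 2 compared groups alone (0.167), and JUN at 2 h with rescaled libraries (0.0734). At 6 h FOSL1 was at 5.73 to 10.3 with both agents, against 35.9 to 49.1 with indacaterol, and JUN at 13.5 to 18.2, against 57.4 to 74.7. These were 4.63-fold and 3.72-fold lower, with limma adjusted p of 2.53e-18 and 1.18e-10. At 18 h they were 4.42-fold and 3.51-fold lower, again without overlap.

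FOSL2 stayed higher with the addition at the later times, at 45.65 to 84.97 with both agents at 6 h, against 24.2 to 39.0 with indacaterol (log2 change 1.06, limma adjusted p = 0.00176), and at 48.9 to 99.5 at 18 h, against 26.1 to 49.7, with a narrow overlap at 18 h (log2 change 1.02, limma adjusted p = 0.00636). The calls were lost with rescaled libraries (adjusted p = 0.0543 at 6 h and 0.0602 at 18 h). The later call was also lost without replicate 2 (0.0596), without replicate 4 (0.0501) and with the 2 compared groups alone (0.0587). JUND was called at 2 h, at 56.4 to 92.1 with both agents, against 93.7 to 162 with indacaterol, without overlap (log2 change -0.77, limma adjusted p = 0.0194). That call was lost without replicate 1 (adjusted p = 0.425) or 2 (0.161), without the 6 libraries of high mitochondrial share (0.0828) and with the 2 compared groups alone (0.0786).

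Adding mometasone to indacaterol thus lowered 1 member and raised 0 after 1 h, where 0.33% of all genes fell and 0.809% rose. After 2 h it lowered 4 and raised 1, where 1.41% fell and 2.75% rose. After 6 h it lowered 2 and raised 1, where 4.78% fell and 6.73% rose, and after 18 h the same numbers of members were called, where 5.38% fell and 5.11% rose. Same-numbered libraries pair at 1 h and 18 h in this comparison. With the replicate block, FOS (adjusted p = 0.00955), FOSL1 (0.028), FOSL2 (3.05e-06) and JUN (8.81e-11) were called at 1 h as well, and BATF3 (0.0361) and JUND (0.00869) at 18 h.

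**Figure D3:**
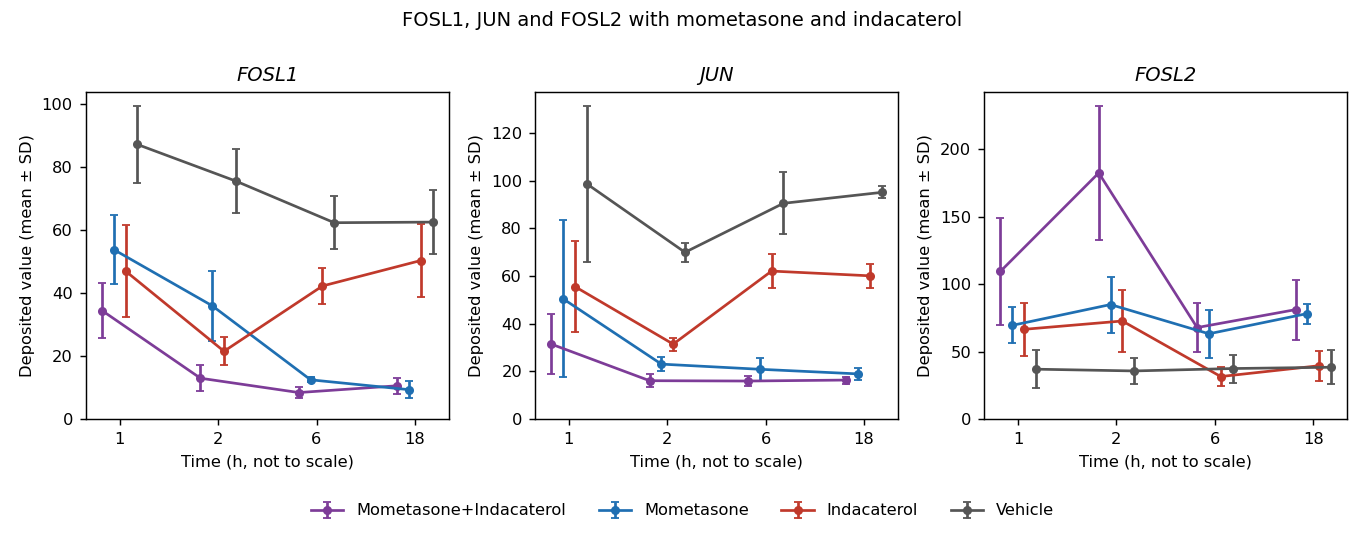
Mean deposited value (± SD, 3 to 5 libraries) of FOSL1, JUN and FOSL2 at 1, 2, 6 and 18 h in mometasone with indacaterol, mometasone, indacaterol and vehicle. FOSL2 averages 182 with both agents at 2 h, while FOSL1 and JUN with mometasone stay far below vehicle at 6 and 18 h.

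Whether mometasone and indacaterol acted other than additively on the log2 scale was tested as an interaction, and 0 of 9 members were called at any time, where 0.0202% of all genes were higher and 0.054% lower after 1 h. After 2 h these shares were 0.256% and 0.148%, after 6 h 0.148% and 0.0674%, and after 18 h 0.0472% and 0.0202%. FOSB had the largest interaction, -1.35 at 1 h (limma adjusted p = 0.679) and -1.36 at 2 h (limma adjusted p = 0.162). For JUNB at 2 h it was -0.90 (limma adjusted p = 0.165). Without replicate 3, FOSB and JUNB were both called at 2 h.

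Carbachol raised FOSB and JUNB at 1 h. FOSB was at 5.80, 6.36, 32.8, 3.80 and 8.44 with carbachol, against 0.99, 1.02, 1.83, 0.69 and 0.98 with vehicle. The groups did not overlap, replicate 3 was far above the others, and the log2 change was 2.19 (SE 0.28, limma adjusted p = 2.78e-08). JUNB was at 18.5, 19.6, 36.3, 18.2 and 23.7 with carbachol, against 10.7, 11.7, 10.9, 9.59 and 13.5 with vehicle, again without overlap (log2 change 0.95, SE 0.19, limma adjusted p = 0.00269). The call of JUNB was lost without replicate 1 (adjusted p = 0.0587) and with 1 h fitted alone (0.0662). With the 2 compared groups alone neither was called. FOS and ATF3, with log2 changes of 1.05 and 1.06, were not called (limma adjusted p = 0.672 and 0.0618).

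The 2 of 9 members higher at 1 h stood against 0.0809% of all genes, and 0% of genes were lower. At 2, 6 and 18 h 0 members were called, with 0.027%, 0% and 0.00674% of all genes higher and 0% lower. At 6 h, limma called 0 genes in either direction, with 124 at an unadjusted p below 0.05. JUNB at 2 h, at 11.7 to 17.4 with carbachol, against 7.61 to 12.7 with vehicle, had an adjusted p of 0.018 with the replicate block, in a comparison where same-numbered libraries pair.

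Averaged over the 4 backgrounds, carbachol raised FOS (log2 change 0.80), FOSB (1.65), JUNB (0.65) and ATF3 (0.99) at 1 h and JUNB (0.51) at 2 h, where 0.189% and 0.121% of all genes rose and 0% fell. Neither FOSL1, with its highest group mean of 119 ± 20 under carbachol at 1 h (SD, n = 5), nor JUN, with 137.6 ± 63, was called, against 87.2 ± 12.1 and 98.7 ± 32.7 with vehicle (SD, n = 5 each). With the replicate number as a block, the averaged 1 h changes of FOSL1 and JUN were called higher (limma adjusted p = 2.06e-06 and 3.78e-05). This comparison did not meet the rule for pairing described below. With the 2 compared sets of groups alone, the averaged change of FOS at 1 h had an adjusted p of 0.764, and it was 0.138 without replicate 1 and 0.109 without replicate 3.

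The highest means of FOS, FOSB and JUNB among the 32 groups were with indacaterol and carbachol together. At 1 h FOSB was at 10.8, 20.6, 19.0, 16.2 and 15.1 with both agents, against 3.78, 5.99, 17.7, 6.72 and 4.53 with indacaterol, with overlap through replicate 3 alone. The log2 change of 1.14 on adding carbachol to indacaterol was not called (limma adjusted p = 0.0607). Without replicate 3 it was 1.40 and called (adjusted p = 0.00476), as it was with no filter on low values (0.049). ATF3 at 1 h was at 94.2 to 164 with both agents, against 42.2 to 94.1 with indacaterol, without overlap (log2 change 0.84, limma adjusted p = 0.123). In the fit to all libraries, 0 members were called for this addition at any time, where at most 0.0405% of all genes were higher and 0.0472% lower. JUNB at 2 h, where same-numbered libraries pair, had an adjusted p of 0.0267 with the replicate block. The interaction of indacaterol and carbachol called 0 members and at most 0.00674% of all genes at any time, and that of FOSB at 1 h was -1.05 (limma adjusted p = 0.299).

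**Figure D4:**
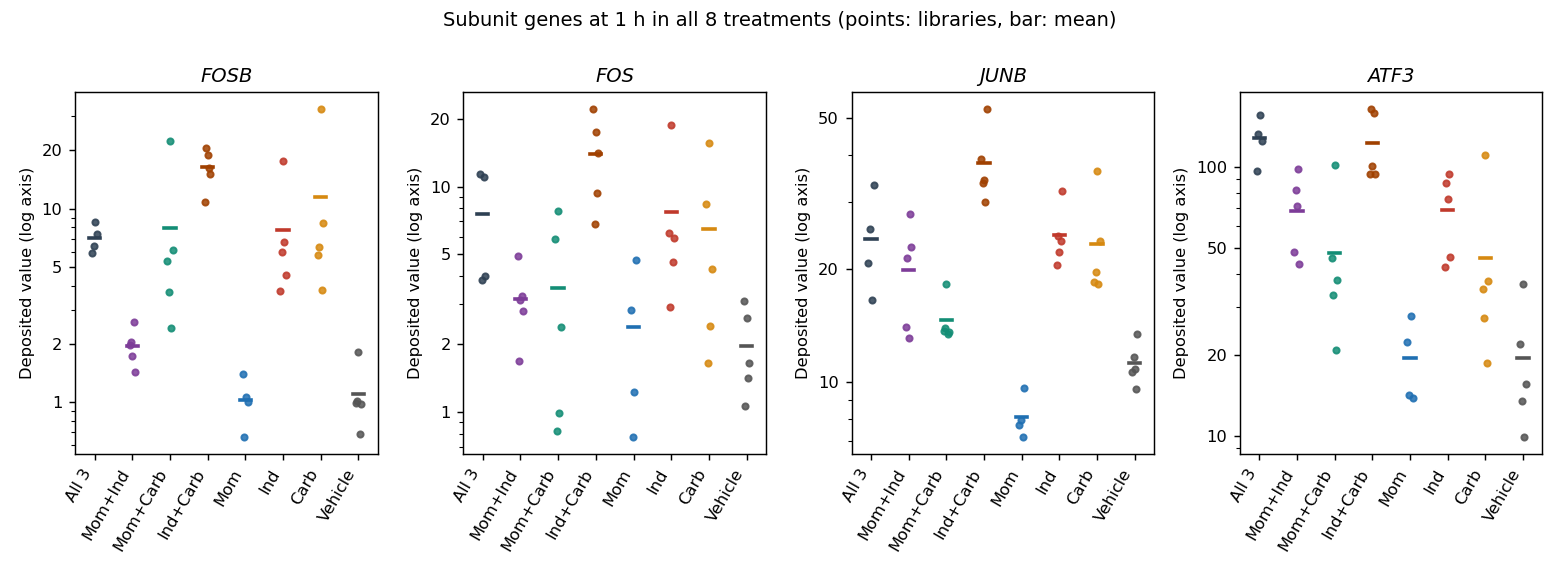
Deposited values (log axis) of FOSB, FOS, JUNB and ATF3 at 1 h in all 8 treatments, with vehicle at the right. Points are libraries and bars are means. ATF3 lies at 42.2 or more wherever indacaterol was given, and FOSB with mometasone and indacaterol lies below FOSB with indacaterol alone in every library.

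The changes altered which FOS-family RNA prevailed. The share of FOSL1 in the sum of FOS, FOSB, FOSL1 and FOSL2 values follows from the levels above and is given as a description, with no test. At 2 h it was 6.64% ± 1.92 with mometasone and indacaterol, 28.8% ± 4.05 with mometasone, 21.0% ± 4.9 with indacaterol and 66.8% ± 4.0 with vehicle (SD, n = 5 each). FOSL2 made up 90.9% ± 2.6, 68.0% ± 5.7, 67.6% ± 7.0 and 31.0% ± 4.5 of the sum in the same groups. Among these groups FOSL2 was the main FOS-family RNA in all but vehicle, where FOSL1 was. FOS and FOSB together made up 11.4% ± 3.1 with indacaterol and 2.25% ± 0.54 with vehicle. The sum itself averaged 106 ± 24 with indacaterol and 114 ± 18 with vehicle at 2 h, a difference below the spread. With mometasone and indacaterol the sum was larger, at 200 ± 52, and with mometasone it was 125 ± 29 (SD, n = 5 each).

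FOSL1 exceeded FOSL2 in 5 of 5 vehicle libraries at 2 h and in 0 of 5 with indacaterol. At 6 h it did so again in 5 of 5 libraries with indacaterol, but in 0 of 5 with mometasone. The share of FOSL1 at 18 h was 10.3% ± 2.6 with mometasone (SD, n = 3), 53.9% ± 9.0 with indacaterol (SD, n = 5) and 61.0% ± 11.2 with vehicle (SD, n = 4). In the JUN family at 2 h, JUN made up 16.7% ± 3.3 of the summed values with indacaterol and 38.4% ± 8.3 with vehicle, JUNB 15.3% ± 2.4 and 5.33% ± 0.42, and JUND 68.0% ± 5.0 and 56.2% ± 8.4 (SD, n = 5 each).

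**Figure D5:**
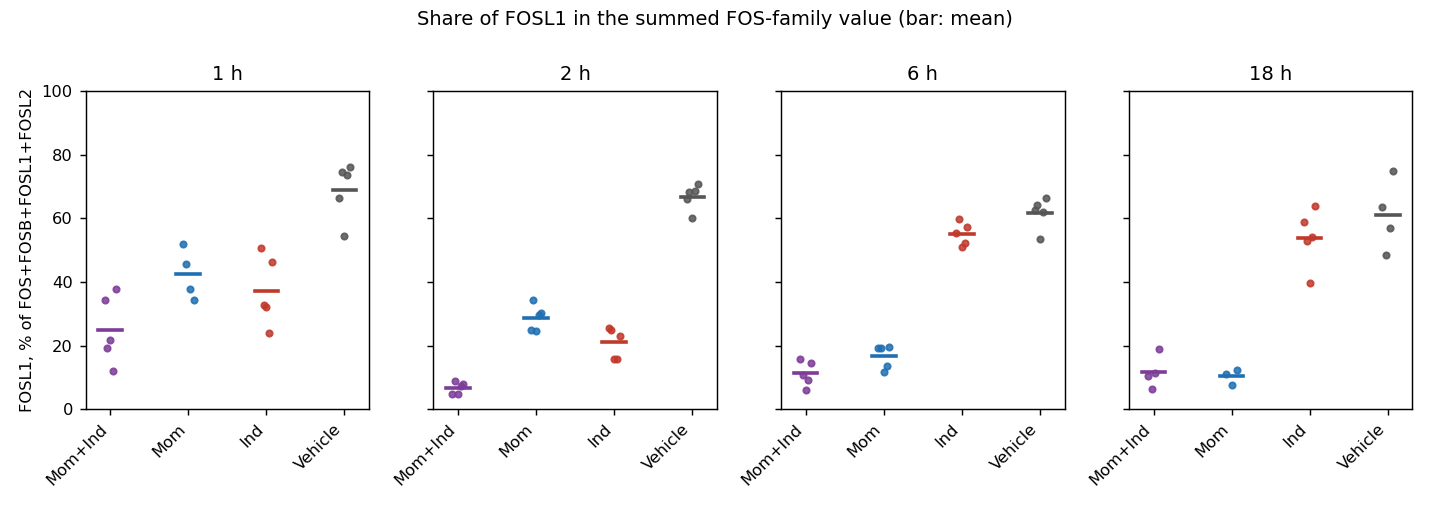
Share of FOSL1 in the summed value of FOS, FOSB, FOSL1 and FOSL2 (%), per library, at 1, 2, 6 and 18 h in mometasone with indacaterol, mometasone, indacaterol and vehicle. Bars are means. The indacaterol share is 21.0% at 2 h and 55.1% at 6 h, while the mometasone share is 28.8% at 2 h and 16.6% at 6 h.

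Other factors of the basic leucine zipper class that pair with AP-1 proteins or share their sites were mostly not called. Of 14 tested genes of a list of 18, 3 rose with indacaterol at 1 h and the same number at 2 h, and 0 fell, where 1.3% of all genes tested rose at 1 h and 2.99% at 2 h. These were MAFK (log2 change 1.11 at 1 h, 1.45 at 2 h) and MAFF (1.07 and 1.33), small MAF proteins without an activation domain, and JDP2 (0.49 and 0.78), a repressor that pairs with JUN. The median of the list was 0.04 at 1 h and 0.07 at 2 h, against 0 and 0.01 over all genes tested. Adding mometasone to indacaterol lowered MAFK, at 75.6 ± 21.5 with both agents and 130 ± 24 with indacaterol at 2 h (SD, n = 5 each; log2 change -0.79, limma adjusted p = 4.66e-05).

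Of 22 genes for kinases and factors that act upstream of FOS and JUN, all tested, 0 were called with indacaterol at 1 h and 1 at 2 h, MEF2D (log2 change 0.90, limma adjusted p = 0.0123), which encodes a factor that binds the JUN promoter. With mometasone 1 of the 22 fell at 6 h, SRF (log2 change -0.41, limma adjusted p = 0.00404), which encodes the serum response factor that drives FOS, and 0 were called at 1, 2 and 18 h. As 4.24% of all genes fell with mometasone at 6 h, and 2.99% rose with indacaterol at 2 h, 1 of 22 is close to the share over all genes in both cases.

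Of 14 tested genes from a list of 22 textbook AP-1 targets, 3 rose with indacaterol at 1 h, 5 rose and 1 fell at 2 h, 2 rose and 2 fell at 6 h, and 1 rose and 1 fell at 18 h. Of all genes tested, 1.3% rose and 0.101% fell after 1 h, 2.99% and 0.911% after 2 h, 0.937% and 0.803% after 6 h, and 0.135% and 0.0674% after 18 h. The list's median log2 change was 0.26, 0.25, -0.25 and -0.23 over these times, against 0, 0.01, 0.00 and -0.01 over all genes. IL6, encoding an inflammatory cytokine, averaged 59.6 ± 6.2 with indacaterol and 2.56 ± 0.34 with vehicle at 1 h (SD, n = 5 each; log2 change 4.09, limma adjusted p = 5.73e-32). IL11, a cytokine of the same family, had log2 changes of 2.63 at 1 h and 3.09 at 2 h, and CCL2, a monocyte chemokine, 0.89 and 1.73. CCND1, which encodes cyclin D1, was among the genes that fell at 6 h (log2 change -1.29, limma adjusted p = 4.51e-09).

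With mometasone, 1 of the 14 targets rose at 1 h, 1 rose and 4 fell at 2 h, 1 rose and 8 fell at 6 h, and 1 rose and 9 fell at 18 h. Of all genes tested, 0.054%, 0.486%, 4.24% and 4.96% fell over these times and 0.418%, 1.5%, 5.37% and 4.14% rose, so 1 of 14 higher was near the share over all genes at 6 and 18 h. The median of the list was -0.71 at 6 h and -0.90 at 18 h, against 0.02 and 0.04 over all genes tested. CCL2 (-2.35 at 6 h), IL6 (-1.48) and CCND1 (-1.47) were the largest falls at 6 h. Adding mometasone to indacaterol lowered IL6 to 2.55 ± 1.14 at 2 h, against 31.0 ± 9.5 with indacaterol alone (SD, n = 5 each; log2 change -3.18, limma adjusted p = 2.04e-23).

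Of 17 tested genes of a list of 21 other immediate early genes, 6 rose and 1 fell with indacaterol at 1 h and likewise at 2 h, and 0 were called at 6 and 18 h. The shares over all genes tested were 1.3% higher and 0.101% lower after 1 h, and 2.99% and 0.911% after 2 h. The largest changes at 1 h were those of the orphan nuclear receptor genes NR4A3 (4.34), NR4A2 (3.71) and NR4A1 (2.97) and of the phosphatase gene DUSP1 (3.17), which switches off MAP kinases. DUSP1 also rose with mometasone, by log2 changes of 2.62 at 1 h and 2.84 at 2 h. Its 2 h level averaged 581 ± 108 with mometasone and indacaterol and 214 ± 58 with indacaterol (SD, n = 5 each; log2 change 1.46, limma adjusted p = 3.51e-11). With carbachol at 1 h 2 of the 17 rose, where 0.0809% of all genes did.

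For each member, the 3 other genes whose group means followed it most closely were found by Pearson's r of mean log2(value + 1) over the 32 groups. The groups share a time course, the 3 agents and the sequencing, so r is a description. FOSL2 was most like SLC38A2 (r = 0.96), KLF9 (0.95) and NTF3 (0.93), and FOSL1 most like THSD1 (0.95), MIEF2 (0.94) and CCDC85B (0.93). JUN was most like RGS3 (0.93), THSD1 (0.92) and TNFSF9 (0.91). ATF3 was most like NR4A1 (0.96), MAFF (0.95) and RHOB (0.94). NR4A1 was also closest to FOSB (0.90, before YRDC with 0.89 and RND3 with 0.85) and second for JUNB (0.92, with PHLDA3 at 0.92 and NR4A3 at 0.90). FOS was most like NR4A2 (0.84), ZNF620 (0.83) and ZNF331 (0.83), JUND like VPS37B (0.90), ZNF628 (0.89) and RPL36AL (0.88), and BATF3 like GAS6, NRSN2 and MARCKSL1 (each 0.88).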

How the data were processed

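RNA of BEAS-2B cells was sequenced in 160 samples, of which 150 libraries were used. Another 10 columns were not used: the authors mark 4 as excluded, and 6 carry a time that no label gives. At 18 h no replicate 1 library was used for vehicle, mometasone alone or any combination. Indacaterol alone and carbachol alone kept theirs. The deposited values are a normalised signal that the authors call TPM, and per the submitters' processing notes bcl2fastq 2.17.1.14 and STAR 2.4.2a with GRCh38 were used. Which quantifier and annotation made the values is not given in the sources used here. Read depth is unknown, so no counting interval is given. The column sums differ between libraries, so an alternative rescaled each to the same sum.

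Values were transformed to log2(value + 1). Genes at 1 or more in at least 5 libraries were kept (14827 of 29273, with all 9 members). limma 3.58.1 (R 4.3.3) fitted 1 model with 32 group means (118 residual degrees of freedom, moderated with a trend), and a call is a two-sided p below 0.05 after Benjamini-Hochberg adjustment over all genes tested in that comparison and time. The script was tested on simulated data. Averaged effects are the mean of the effect over 4 backgrounds. Libraries of the same replicate number were taken as paired where all same-number correlations of deviations exceeded 0.1. This held for indacaterol against vehicle at 2 and 18 h, carbachol against vehicle at 2, 6 and 18 h, mometasone against vehicle at 1 and 2 h, carbachol added to indacaterol and its interaction at 2 and 18 h, and mometasone added to indacaterol at 1 and 18 h. A single low correlation fails the rule, and averaged effects, with 99 to 140 pairs at a time, never met it. Their correlations at 2 h ran from -0.05 to 0.79, against a mean of -0.09 between different numbers. Comparisons that failed the rule may thus still share spread by replicate number. Genes of the lists are named where called, up to 4 per list with the largest changes, and 1 named by this rule is not reported here. The members and lists were chosen with earlier results of these data known.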

Additional observations from a re-analysis of the deposited data

Results flagged for a closer look

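Dixon's criterion was applied to each member in each group of 4 or 5 libraries, which gave 270 sets of values. In 21 of these sets a library lay far from the others, where chance gives 13.5 (5%) for normally distributed values. That distribution was not tested. Members of a group share the same libraries, so the sets are not independent, and the excess over chance was not tested. Most of the flagged values at 1 h were of replicate 3. FOSB in replicate 3 at 1 h was 22.4 with mometasone and carbachol (others 2.42 to 6.09), 17.65 with indacaterol (3.78 to 6.72), 32.75 with carbachol (3.80 to 8.44) and 1.83 with vehicle (0.69 to 1.02). FOS in replicate 3 with indacaterol at 1 h was 18.69, against 2.93 to 6.24 in the others. Under carbachol at 1 h, ATF3 in replicate 3 was 110.75 (others 18.7 to 37.6) and FOSL2 was 70.8 (25.2 to 38.3). JUNB in replicate 3 with mometasone and carbachol at 1 h was 18.26 (13.5 to 13.9). BATF3 in replicate 5 with indacaterol and carbachol at 1 h was 12.44 (6.40 to 7.30).

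At 2 h, FOSB in replicate 2 was 6.45 with mometasone (others 0.26 to 1.11) and 2.36 with vehicle (0.48 to 1.01). FOSL1 in replicate 2 with indacaterol at 2 h was 29.2 (18.4 to 20.7), and FOS in replicate 4 with all 3 agents at 2 h was 6.22 (2.07 to 2.84).

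At 6 h, FOS in replicate 2 with mometasone and indacaterol was 0.92 (others 2.26 to 2.72) and JUN in replicate 3 with indacaterol was 74.73 (57.4 to 59.6). FOSL1 at 6 h was 13.84 in replicate 1 with mometasone (11.96 to 12.4) and 15.36 in replicate 2 with mometasone and carbachol (11.9 to 12.4). In that same treatment and time, FOSB was 1.24 in replicate 4 (0.47 to 0.62), FOSL2 was 94.43 in replicate 3 (47.8 to 59.7) and JUNB was 11.51 in replicate 5 (6.60 to 7.95). At 18 h, JUN in replicate 3 with mometasone and carbachol was 17.47 (18.4 to 18.6).

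The effect of indacaterol differed between times for ATF3 at 6 h against 1 h (log2 difference -1.75), for ATF3 at 18 h against 1 h (-1.71) and for FOSB at 18 h against 1 h (-1.84), by limma's test of the difference itself.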

How the results depend on the processing

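The 80 calls of members gave 957 values under the alternatives, of which 886 stayed called in the same direction, 71 lost the call and 0 reversed. Fits of each time alone or of the compared groups alone keep the same log2 changes, so their values could not reverse. The other alternatives reuse most or all of the same libraries. Counts of calls over members and times moved by more than 1.5 times as follows. With the replicate number as a block, calls lower with indacaterol against vehicle were 7 (3 without the block), higher with carbachol 6 (2) and higher with mometasone 5 (2). The block gave 6 higher (0) on adding carbachol to indacaterol, 17 lower (9) on adding mometasone to indacaterol, and 9 higher (5) for averaged carbachol. It gave 1 lower (0) for the interaction of indacaterol and carbachol, 1 higher (0) and 3 lower (0) for that of mometasone and indacaterol, 1 higher (0) and 9 lower (3) for the indacaterol effect at later times, and 1 lower (0) in vehicle over time. At 1 h, where same-numbered libraries of indacaterol and vehicle did not all deviate together, the block called JUN lower (adjusted p = 2.25e-10) and FOSL2 higher (2.81e-09). Where same-numbered libraries pair, the calls it changed stand beside the results. Leaving out 1 replicate gave 1 to 2 higher calls with carbachol, 1 to 3 higher with mometasone, 0 to 1 higher on adding carbachol to indacaterol, 0 to 2 lower for the interaction of mometasone and indacaterol, and 0 to 3 lower for the indacaterol effect at later times. With each time fitted alone, 6 calls were lower with indacaterol and 1 was higher with carbachol. With the compared groups alone there were 0 higher with carbachol, 1 higher with mometasone, 5 lower on adding mometasone to indacaterol, and 1 lower for the indacaterol effect at later times. No filter gave 1 higher call on adding carbachol to indacaterol, and libraries rescaled to the same sum gave 1 higher on adding mometasone to indacaterol (3). The cause was not tested. Rescaling moved the median log2 change of all genes by 0.15 for mometasone against vehicle at 18 h, by -0.11 for indacaterol at 2 h and by 0.13 for mometasone added to indacaterol at 2 h. For the interaction of mometasone and indacaterol it moved by -0.16 at 1 h, the largest shift, 0.13 at 2 h and -0.13 at 18 h. The remaining shifts above 0.1 were 0.10 for mometasone against vehicle at 1 h, -0.12 for the indacaterol effect at 2 h against 1 h, and 0.11 for vehicle at 6 h against 1 h. FOS and FOSB lie near the floor of the table, and depth is unknown.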
